A study of Mus musculus with 6 samples.

Results

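Guanylate-binding proteins (GBPs) and immunity-related GTPases (IRGs) are proteins that cells make after exposure to interferon. Here 10 of their genes were followed in the adult mouse brain: the IRG genes Iigp1, F830016B08Rik, Irgm1, Irgm2 and Igtp, and the GBP genes Gbp2, Gbp3, Gbp4, Gbp6 and Gbp7. They were taken by gene name from the 53801 genes of the count table, and all 10 reached the minimum of 10 counts in all 6 libraries together, as did 23975 genes. RNA-seq of polyadenylated RNA was performed on a single hemisphere from each of 3 Bahd1-KO mice (Bahd1-/-) and 3 Bahd1-WT mice (Bahd1+/+), to ask how loss of BAHD1, a protein of repressive chromatin, changes brain transcripts. The mice were C57BL/6 males of about 70 weeks without any other treatment, the knockouts came from crossing heterozygous mice, and each sample was a different animal. The knockout is present in every cell of the body from conception, so these samples do not separate an effect in brain cells from one that reaches the brain from elsewhere. A hemisphere is a mixture of cell types, and fewer cells of a type and less RNA per cell cannot be told apart.

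Both families bind and hydrolyse GTP, gather on the vacuoles that enclose intracellular parasites and bacteria, and help to break them open. Interferon-gamma binds its receptor, the kinases JAK1 and JAK2 pass the signal on, and it reaches GAS elements in DNA. Type I interferons, and the factor IRF1 that interferon-gamma induces, act through another element, the ISRE. Among the IRGs, Irgm1, Irgm2 and Igtp encode regulators that sit on the cell's own membranes and restrain the others, whereas Iigp1 encodes an effector that loads onto the vacuole. Microglia and endothelial cells are among the brain cells that can respond to interferon-gamma.

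Promoter windows, the DNA through which interferon acts on the genes, were read for Irgm1, Irgm2, Igtp, Gbp2, Gbp3 and Gbp7. The set of windows held none for Iigp1, F830016B08Rik, Gbp4 and Gbp6. The matches thus say nothing of those genes, which had the largest differences given below. The 7 windows, from RefSeq (GRCm38.p6), ran from 250 bases before to 50 bases after an annotated start, and Gbp3 had 2 of them. The ISRE was searched as GAAA, any 2 bases and GAAA again, on both strands, and the GAS as TTCNNNGAA, which reads the same on both strands. All 6 genes had an ISRE match in a window, compared with 1126 of the 32817 windows of the whole table (3.43%). A GAS match was found in the windows of Irgm2, Igtp and Gbp7, against 8.29% of all windows. The stretches below run 5′ to 3′ in the direction of the gene, with the ISRE match in capitals, and a match is a likeness of letters, not a shown binding site. For Irgm2 (chr11:58214867-58214976, plus strand), Igtp (chr11:58199446-58199555, plus strand) and Gbp7 (chr3:142530226-142530335, plus strand) these are the 110 bases before the start. For Irgm1 (chr11:48871428-48871457, minus strand), Gbp2 (chr3:142620594-142620623, plus strand) and Gbp3 (chr3:142559992-142560021, plus strand) they are 30 bases around the match.
Irgm1: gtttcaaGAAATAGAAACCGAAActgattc
Irgm2: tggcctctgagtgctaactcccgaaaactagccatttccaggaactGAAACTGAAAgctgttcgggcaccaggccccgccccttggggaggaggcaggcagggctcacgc
Igtp: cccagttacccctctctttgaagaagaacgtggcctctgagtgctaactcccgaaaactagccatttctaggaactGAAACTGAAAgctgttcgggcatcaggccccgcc
Gbp2: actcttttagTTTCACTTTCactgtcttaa
Gbp3: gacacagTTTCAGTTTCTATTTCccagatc
Gbp7: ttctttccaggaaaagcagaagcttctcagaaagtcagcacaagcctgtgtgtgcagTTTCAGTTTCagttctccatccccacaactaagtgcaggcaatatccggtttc

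In Irgm1, Irgm2 and Igtp the capitals read in the direction of the gene, and in the 3 GBP genes they read on the opposite strand. Irgm1 and Gbp3 each had a pair of matches that overlap. The matches began 30 bases before the start in Irgm1, 34 in Igtp, 45 in Gbp3, 53 in Gbp7, 59 in Gbp2 and 64 in Irgm2. The Igtp and Irgm2 windows were near copies, with 244 of 265 aligned bases identical (92.1%), and both had a GAS match just before the ISRE match. Gbp7 had 2 GAS matches. Both motifs together were found in 0.451% of all windows.

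**Figure D1:**
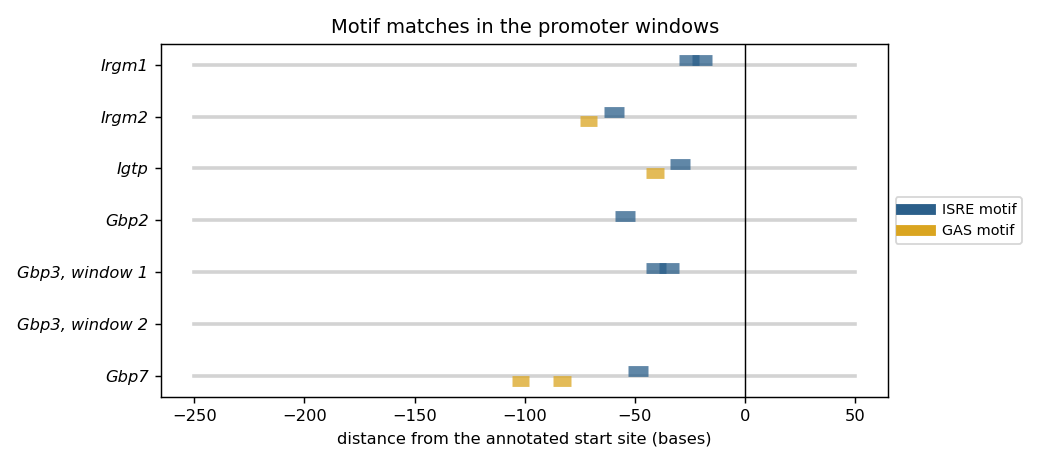
Position of ISRE (blue) and GAS (yellow) matches in 7 promoter windows of 6 genes, with the distance from the annotated start site in bases on the x axis and 1 line per window. In 6 of the 7 windows an ISRE match lay within 64 bases before the start, and the other window of Gbp3 had neither motif.

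The 10 genes lay in groups on the genome (GRCm38, GENCODE M21 coordinates). Irgm1 (chr11:48861968-48871683, minus strand) was apart from Igtp (chr11:58199556-58207591) and Irgm2 (chr11:58199618-58222782), whose GENCODE gene bounds begin next to each other on the plus strand. The RefSeq starts used for the Irgm1, Irgm2, Gbp2 and Gbp3 windows above lie inside the GENCODE bounds of these genes. The ISRE matches of Irgm1, Irgm2 and Gbp2 thus lie inside them too. In Irgm1, Gbp2 and Gbp3 the bases before the RefSeq start overlapped an annotated exon of the same gene. Iigp1 (chr18:60376027-60392634) and F830016B08Rik (chr18:60293380-60303016) were neighbours on chromosome 18. On chromosome 3 were Gbp7 (chr3:142530342-142550149), Gbp3 (chr3:142560026-142573209) and Gbp2 (chr3:142620602-142638008). On chromosome 5 were Gbp4 (chr5:105115767-105139586) and Gbp6 (chr5:105270702-105293698), both on the minus strand. Some of these genes share exon sequence with a neighbour on the same strand, where reads cannot be given to either gene with certainty: 1726 bases of Gbp6 with Gm43302, 637 of Gbp7 with the pseudogene Gm43802, 162 of Igtp with Irgm2, and 60 and 61 of Gbp4 with Gbp9 and Gbp8. The values of these genes are uncertain to that extent, and close sequence likeness within both families adds to it.

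Libraries held between 42297150 and 93557948 counts. Bahd1 itself had 1383, 844 and 1099 counts in the WT samples and 0, 14 and 1 in the KO samples. Levels are given as CPM (counts scaled to a common library size) with TMM normalization, and a count of 3 corresponded to 0.0315 to 0.0690 CPM. Genes poor in G and C bases were lower in the KO libraries and genes rich in them higher. In 10 groups of expressed genes ordered by GC content, the median log2 fold change ran from -0.55 at a median GC of 39.4% to 1.40 at 59.4%. Fold changes are therefore given both from edgeR with TMM normalization and from edgeR with an offset for GC content and length in each library. On that gradient the 3 KO samples stood apart from each other, and KO replicate 2 was farthest from the WT samples. The WT libraries also held transcripts that mark lung epithelium, with all 8 genes of that list lower in KO and 4 of them at 0 in some library: the summed level of these genes, led by Scgb1a1, Sftpc and Sftpa1, was 114, 26.9 and 2.48 CPM in WT replicates 1 to 3 and 0.575 to 1.53 CPM in the KO samples. Results on the 10 genes are thus also given without WT replicates 1 and 2.

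Transcripts of all 10 genes were found in brains of both genotypes, at low levels. Per kilobase of exon, the mean WT level was highest for Gbp2 (3.33 ± 0.0977 CPM per kb, SD, n = 3), followed by Irgm1 (3.14 ± 0.681), Igtp (2.54 ± 0.137), Gbp3 (2.22 ± 0.227) and Irgm2 (1.87 ± 0.192). Neighbours in that order overlapped in their WT samples. Gbp7 followed at 1.36 CPM per kb, Iigp1 at 0.811, Gbp4 at 0.296, Gbp6 at 0.285 and F830016B08Rik at 0.0965, and of these neighbours only Gbp4 and Gbp6 overlapped. The 3 regulators of the IRG family were thus all above the effector Iigp1 in every WT sample. In the KO samples Igtp was highest (2.75 ± 0.429 CPM per kb), ahead of Gbp2 (2.44 ± 0.411), Irgm1 (2.23 ± 0.414), Gbp3 (1.72 ± 0.280), Irgm2 (1.37 ± 0.340) and Gbp7 (0.939 ± 0.264), and each overlapped the next. Iigp1 (0.352), Gbp4 (0.161), Gbp6 (0.143) and F830016B08Rik (0.0204 CPM per kb) came last, in the same order as in the WT samples.

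**Figure D2:**
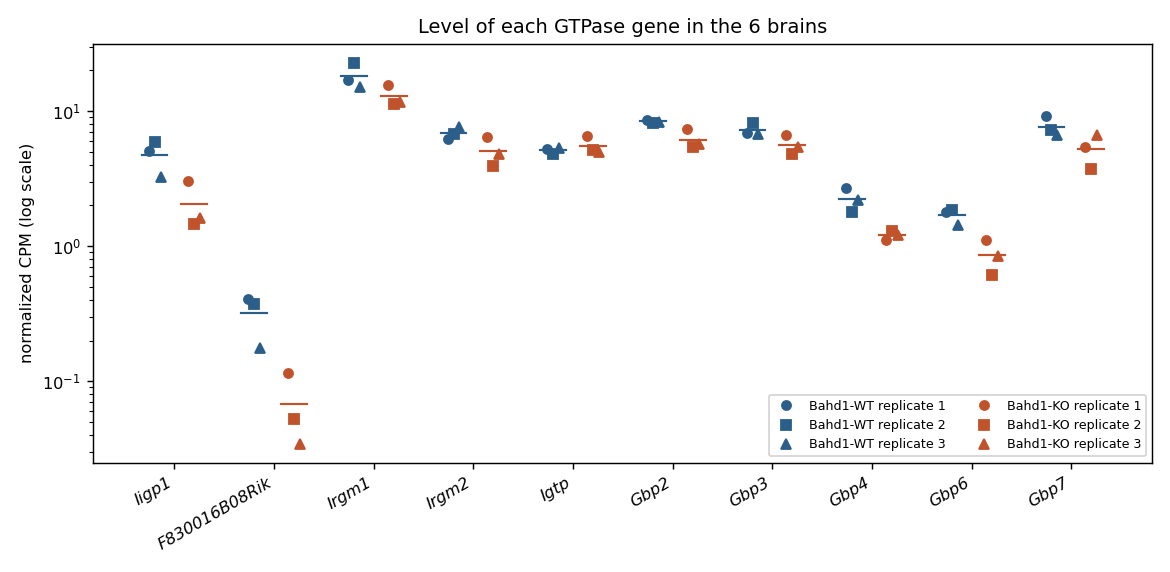
Level of each gene (CPM, log scale) in the 3 Bahd1-WT and 3 Bahd1-KO samples, with a point for each sample and a bar for each group mean. The WT points lie above the KO points without overlap for Iigp1, F830016B08Rik, Gbp2, Gbp3, Gbp4 and Gbp6, and the points of Irgm1, Irgm2, Igtp and Gbp7 overlap.

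In the KO brains 9 of the 10 genes had lower mean levels than in the WT brains, and Igtp did not. None of the 10 passed the test: in edgeR's quasi-likelihood test with Benjamini-Hochberg adjustment over all genes, 0 of 10 had an adjusted p under 0.05, and this was so for all but 2 of the 23975 genes (0.00834% called in either direction, 0.00417% lower in KO). An unadjusted p under 0.05 was found for 4 of the 10 (Iigp1, F830016B08Rik, Gbp4 and Gbp6), against 12% of all genes in this direction. KO and WT samples did not overlap, with KO lower, in 6 of the 10, against 19.3% of all genes. A negative log2 fold change was found for 53.4% of all genes. The median log2 fold change of the 10 was -0.52, and that of all genes was -0.06. With DESeq2 in place of edgeR, the same 4 genes were called as lower, against 3.56% of the genes with an adjusted p (3.54% with a normal prior). P-values here set the difference between the groups against the spread within them, over 6 libraries from different animals. Differences between animals and between libraries cannot be told apart in that spread. The 10 genes were chosen with earlier results of the same samples known, so their number and direction are not independent evidence.

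The pair on chromosome 18 had the largest differences. Iigp1 encodes an effector GTPase that coats the vacuole of Toxoplasma. Its level was 5.07, 5.86 and 3.23 CPM in the WT samples and 3.06, 1.47 and 1.62 CPM in the KO samples, from 237 to 464 counts and from 94 to 140 counts. The highest KO sample lay just under the lowest WT sample. The means were 4.72 ± 1.35 and 2.05 ± 0.875 CPM (SD, n = 3 each), a log2 fold change of -1.21 (SE 0.35) with an adjusted p of 0.0696 in edgeR. F830016B08Rik, a less studied IRG gene next to it, was the rarest of the 10 transcripts. It had 37, 23 and 13 counts in the WT samples and 5, 5 and 2 in the KO samples, or 0.404, 0.372 and 0.177 against 0.115, 0.0525 and 0.0345 CPM. All KO values were under all WT values, and the log2 fold change was -2.31 (SE 0.55) with an edgeR adjusted p of 0.0634. Only a few reads per library stand behind this value, and 1 of the KO samples was under the floor of 3 counts.

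Gbp4 and Gbp6, from the group on chromosome 5, came next. GBPs of this group gather on pathogen vacuoles along with those of chromosome 3. Gbp4 was at 2.69, 1.78 and 2.20 CPM in the WT samples and at 1.10, 1.30 and 1.21 CPM in the KO samples. Its KO samples were close to each other and all under the WT samples, with a log2 fold change of -0.88 (SE 0.24) and an edgeR adjusted p of 0.0662. Gbp6 was at 1.79, 1.86 and 1.43 CPM in the WT samples and at 1.10, 0.609 and 0.846 CPM in the KO samples. Again the groups did not overlap, and the log2 fold change was -1.01 (SE 0.28; edgeR adjusted p = 0.0673).

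Differences were smaller on chromosome 3. Gbp2 encodes a GBP with a lipid anchor at its C-terminal end. It was at 8.65, 8.21 and 8.25 CPM in the WT samples and at 7.33, 5.43 and 5.68 CPM in the KO samples. The SD of the WT samples was 0.246 CPM (n = 3), and the log2 fold change was -0.45 (SE 0.20; edgeR adjusted p = 0.168). Gbp3 was at 6.88, 8.10 and 6.75 CPM in the WT samples and at 6.60, 4.79 and 5.46 CPM in the KO samples. KO replicate 1 was just under the lowest WT sample, and the log2 fold change was -0.37 (SE 0.21; edgeR adjusted p = 0.252). Gbp7, which acts in antimicrobial defence of macrophages, was at 9.12, 7.21 and 6.60 CPM in the WT samples and at 5.40, 3.73 and 6.68 CPM in the KO samples. Its groups overlapped through KO replicate 3, with a log2 fold change of -0.54 (SE 0.26; edgeR adjusted p = 0.192).

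KO and WT samples overlapped for each of the 3 IRG regulators on chromosome 11. Irgm1, which is needed for resistance to several intracellular bacteria, had the most counts of the 10. It was at 16.9, 22.7 and 15.1 CPM in the WT samples and at 15.7, 11.3 and 11.7 CPM in the KO samples, a log2 fold change of -0.50 (SE 0.23; edgeR adjusted p = 0.169). Irgm2 was at 6.26, 6.80 and 7.66 CPM in the WT samples and at 6.41, 3.94 and 4.80 CPM in the KO samples, a log2 fold change of -0.45 (SE 0.24; edgeR adjusted p = 0.215). KO replicate 1 was within the WT range for both genes. Igtp, also named Irgm3, was at 5.22, 4.83 and 5.36 CPM in the WT samples and at 6.55, 5.13 and 4.97 CPM in the KO samples. It was the only gene of the 10 with a log2 fold change above 0, at 0.11 (SE 0.21; edgeR adjusted p = 0.731). KO replicate 1 was above the WT range, and the other KO samples were within it.

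**Figure D3:**
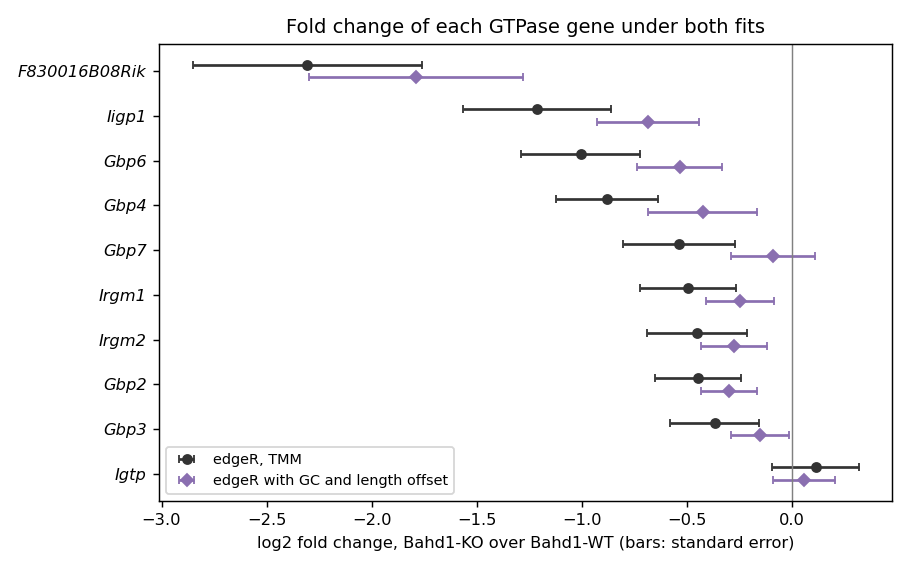
Log2 fold change (Bahd1-KO over Bahd1-WT) of each gene with its standard error, from edgeR with TMM normalization and from edgeR with an offset for GC content and length. With TMM the values run from -2.31 for F830016B08Rik to 0.11 for Igtp, and with the offset from -1.79 to 0.05.

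By family, the log2 fold changes of the 5 GBP genes had a median of -0.54, all below 0, and the 5 IRG genes one of -0.50, with 4 below 0. By place, the median was -1.76 for the pair on chromosome 18, -0.94 for the pair on chromosome 5, and -0.45 both for the 3 genes on chromosome 3 and for the 3 on chromosome 11. The summed level of the 10 genes was 63.0, 67.7 and 56.8 CPM in the WT samples and 53.4, 37.8 and 43.1 CPM in the KO samples. No KO sample reached the lowest WT sum. Within that sum, which does not depend on the scaling of a library, 4 genes had shares whose KO and WT samples did not overlap. Igtp took 8.30, 7.13 and 9.44% of the counts in the WT samples and 12.3, 13.6 and 11.6% in the KO samples. Gbp6 took 2.85, 2.75 and 2.52% in the WT samples and 2.07, 1.61 and 1.97% in the KO samples. The groups did not overlap for either gene, nor for Gbp3 (11.6 ± 0.572% against 12.6 ± 0.181%, SD, n = 3) and F830016B08Rik (0.502 ± 0.170% against 0.145 ± 0.0677%). GC content, which is highest for Igtp, moves with these shares too. For each of these 4 genes the exact permutation test (two-sided, 3 against 3) gave p = 0.1, the smallest that this design allows, or 0.25 after adjustment over the 10 genes. Irgm1 took 29.0 ± 3.92% in the WT samples and 28.9 ± 1.44% in the KO samples (exact permutation p = 1).

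The GC content of the 10 genes moved with these values. It was lowest for Iigp1 (39.3%), F830016B08Rik (40.4%) and Gbp6 (41.1%), which had the largest differences, and highest for Igtp (49.5%), whose log2 fold change was above 0. The genes of the same GC group had a median log2 fold change of -0.55 for those 3, -0.43 for Gbp4 and Gbp7, -0.24 for Irgm1, Irgm2, Gbp2 and Gbp3, and 0.05 for Igtp. The log2 fold change was below that of its GC group for 9 of the 10 genes. With the offset, 9 of the 10 were still below 0, against 57.5% of all genes, and their median was -0.29 in place of -0.52. Iigp1 was then at -0.69 (SE 0.24; edgeR adjusted p = 0.146), F830016B08Rik at -1.79 (SE 0.51; edgeR adjusted p = 0.0991) and Gbp6 at -0.53 (SE 0.20; edgeR adjusted p = 0.172). Gbp4 was at -0.43 (SE 0.26), Gbp2 at -0.30 (SE 0.13), Irgm2 at -0.28, Irgm1 at -0.25, Gbp3 at -0.15, Gbp7 at -0.09 and Igtp at 0.05. An unadjusted p under 0.05 was then found for Iigp1, F830016B08Rik, Gbp2 and Gbp6, 4 of 10 against 11.4% of all genes, with Gbp2 in place of Gbp4. Groups did not overlap, with KO lower, for F830016B08Rik, Gbp2, Gbp3 and Gbp6, against 14.6% of all genes. None of the 10 was called with the offset, in edgeR (0.00834% of all genes called as lower) or in DESeq2 (5.26%). In DESeq2 with the offset F830016B08Rik got no adjusted p, so only 9 of the 10 could be called. Iigp1 was there just above the threshold (DESeq2 adjusted p = 0.0504).

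**Figure D4:**
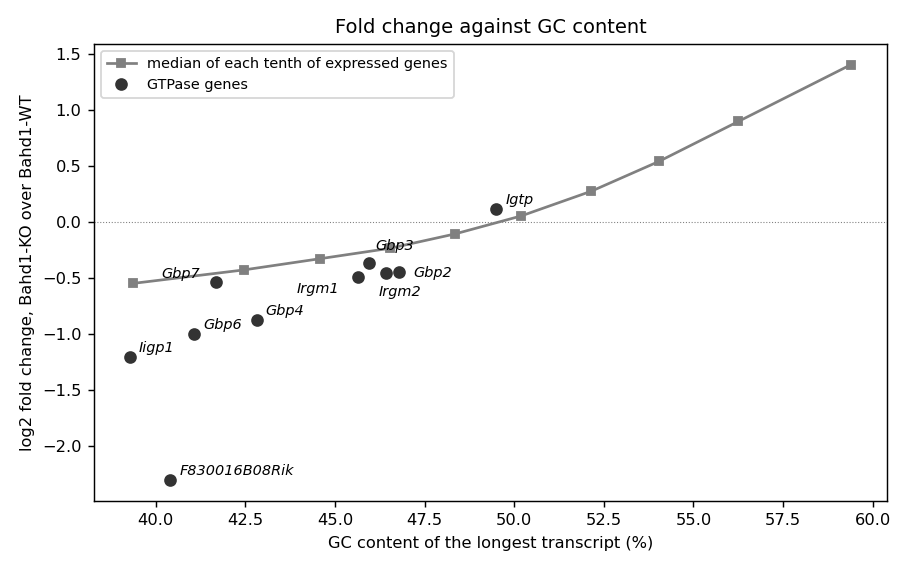
GC content of each gene's longest transcript (percent, x axis) against its log2 fold change without the offset (y axis), with the median of all expressed genes in 10 groups by GC content as a grey line. The line climbs from -0.55 to 1.40, and 9 of the 10 labelled genes lie below it.

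The calls on these genes moved with the test and the samples. Without KO replicate 1, edgeR called 3 of the 10 (Iigp1, F830016B08Rik and Gbp6), against 10.3% of all genes as lower. The same 3 were called when genes were kept with a single count (1.63% of all genes), and F830016B08Rik alone with total counts as the only scaling (0.571%). With the replicate number as a block, 0 of 10 were called (0.0209% of all genes), as with the block and the offset together (0.0292%). Without WT replicates 1 and 2, the libraries with the most lung transcripts, 0 of 10 had an unadjusted p under 0.05, against 1% of all genes, and 9 of 10 were below 0, against 51.1%. This fit has a single WT sample and takes its spread from the 3 KO samples, so the 0 is of little weight. Their median was then -0.52, with Iigp1 at -0.67, F830016B08Rik at -1.47, Gbp6 at -0.77 and Gbp4 at -0.87. Against WT replicate 3 alone the difference in Iigp1 was thus smaller, and that in Gbp4 was close to its value with all WT samples. The part of lung transcripts in the levels of these genes was not tested.

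The rest of the 2 families was read from a list of 18 further genes, of which 16 were measured above the filter. In edgeR none was called, 13 were below 0 and 3 above, and the median was -0.53 (-0.34 with the offset). An unadjusted p under 0.05 was found for 6 as lower and 1 as higher, where 12% of all genes had one as lower and 19.9% as higher (31.8% in either direction). DESeq2 called 2 of them, Gbp9 and Gm4951, as lower (21.3% of the genes with an adjusted p called in either direction), and with the offset it called only Irgq, as lower (12.3%), whose log2 fold change was 0.27 without the offset and -0.53 with it. Gbp9, beside Gbp4 on chromosome 5, had means of 5.12 ± 0.426 and 2.85 ± 0.990 CPM in the WT and KO samples, with a log2 fold change of -0.84 (SE 0.27; edgeR adjusted p = 0.0861), and -0.38 with overlapping groups under the offset. Gm4951, an IRG gene of the chromosome 18 group, was at -1.12 (SE 0.36; edgeR adjusted p = 0.0839) and at -0.67 with the offset. Gm5431 was at -1.39 (SE 0.46; edgeR adjusted p = 0.0908) and at -1.05 with the offset. The effector IRGs Tgtp1 (-0.48, and -0.13 with the offset), Tgtp2 (-0.45, -0.16) and Gm12250 (-0.95, -0.81) had overlapping groups, as had Gbp5 (-0.39, -0.38), a GBP that promotes inflammasome assembly. A further list joined Mx genes, very large inducible GTPases and the related atlastin genes Atl1, Atl2 and Atl3. Of these, 9 of 9 measured were below 0, with a median of -0.70. With the offset 7 of 9 were below 0, with a median of -0.63, and Atl1 (0.04) and Atl2 (0.09) were above. EdgeR called 0 of these 9, with an unadjusted p under 0.05 for 6 as lower (12% of all genes), while DESeq2 called Gm8995 and, with the offset, Gm8995 and Mx2. These included Mx2, an antiviral GTPase (-0.70, SE 0.23, and -0.88 with the offset), and the very large GTPases Gm8995 (-1.10, SE 0.32, and -0.63) and Gvin1 (-1.32, SE 0.43, and -0.75), the latter with only 3 to 15 counts a sample.

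The inducers and receptors of the pathway had values on both sides of 0. None was called by edgeR or DESeq2 with all samples. An unadjusted p under 0.05 in edgeR was found for 1 receptor gene, Ifngr2 (31.8% of all genes in either direction). Ifng, the gene of interferon-gamma, had 0 to 2 counts a sample and was not tested. Of 11 ligand genes only Il18 (-0.36, and -0.23 with the offset) and Il12a (-0.15, and -0.04), both cytokines that raise interferon-gamma production, passed the filter. Of 6 receptor genes 2 were below 0 and 4 above. Ifngr1, the ligand-binding chain of the interferon-gamma receptor, was at 14.9 ± 1.72 CPM in the WT samples and 17.0 ± 0.989 CPM in the KO samples. Ifngr2, its signalling chain, was at 37.6 ± 2.66 and 48.5 ± 2.69 CPM without overlap of the groups (log2 fold change 0.37, SE 0.15; edgeR adjusted p = 0.138), and at 0.33 with the offset. The receptor gene Ifnlr1 was at 0.67 with overlapping groups, and at 0.34 with the offset.

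Of 13 genes for kinases and transcription factors of interferon signalling, 6 were below 0 and 7 above, with a median of 0.07. With the offset 10 were below 0 and 3 above, with a median of -0.18. Irf1 was at 3.74 ± 0.767 CPM in the WT samples and 4.65 ± 0.948 CPM in the KO samples, with overlapping groups (edgeR adjusted p = 0.399). Jak2 had a log2 fold change of -0.49 (-0.18 with the offset) and Tyk2 one of 1.10 (0.09 with the offset). Among 8 genes for inhibitors of the pathway, 5 were above 0. Socs1 was at 1.90 (SE 0.63; edgeR adjusted p = 0.0907) on 3 to 57 counts a sample, Socs3 at 0.98 and Pias3 at 0.64, and with the offset these were 0.55, -0.29 and -0.06. EdgeR called none of the 13 and 8 genes, with an unadjusted p under 0.05 for 2 and 4 of them (31.8% of all genes in either direction). DESeq2 called Tyk2, Socs1 and Socs3 as higher (21.3% of genes called in either direction), and none with the offset (12.3%).

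Other targets of interferon-gamma also had values on both sides of 0. Of 16 measured, 6 were below 0 and 10 above, with a median of 0.13. With the offset 9 were below 0 and 7 above, with a median of -0.05. EdgeR called 0, with an unadjusted p under 0.05 for 2 as lower and 5 as higher (12% and 19.9% of all genes). DESeq2 called 6, of which Parp14 was lower and 5 higher (21.3% of genes called in either direction). With the offset DESeq2 called 7 (12.3% of genes in either direction), of which Tapbp (-0.82), Psme1 (-0.88) and Parp14 (-0.45) were lower and 4 higher. Psmb10, a subunit of the immunoproteasome, was at 2.05 (0.94 with the offset), Tap2, a peptide transporter for antigen presentation, at 2.05 (0.94), and Wars, a tRNA synthetase, at 0.89 (0.39), and DESeq2 called these 3 with and without the offset. Autophagy genes, whose products help to direct these GTPases to membranes, had 5 of 10 below 0 (3 of 10 with the offset), 5 without overlap as higher and 0 as lower (20.6% and 19.3% of all genes). EdgeR called 0 of the autophagy genes, with an unadjusted p under 0.05 for 3 as higher (19.9% of all genes). DESeq2 called those 3 (21.3% in either direction). With the offset it called 2 genes, Atg16l1 and Map1lc3b, both as higher (12.3%). Map1lc3a was at 1.95 (0.16 with the offset), Map1lc3b at 0.64 (0.42) and Atg7 at 0.84 (0.40). Of 6 enzymes that add and process the lipid anchor of some GBPs 3 were below 0. DESeq2 called the other 3 (21.3% of genes in either direction), and none with the offset (12.3%). EdgeR called none, with an unadjusted p under 0.05 for 5 (31.8% of all genes in either direction). The 3 called by DESeq2 were Fntb at 0.87 (0.17), Icmt at 0.68 (0.13) and Rce1 at 0.90 (-0.15). Of 7 inflammasome genes, which act after GBPs, 4 were below 0 with a median of -0.31, and with the offset 3 were below 0 with a median of 0.00098. Il1b was at -1.43 (SE 0.50, and -1.26 with the offset), Aim2 at -0.85 (SE 0.32, and -0.44) and Gsdmd at 0.78 (0.15). EdgeR called 0 of the inflammasome genes, with an unadjusted p under 0.05 for those 3 (31.8% of all genes in either direction). DESeq2 called Gsdmd only (21.3%), and none with the offset (12.3%).

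The 0 calls of edgeR in these lists did not hold in all settings. Without KO replicate 1, where 30% of all genes were called in either direction, it called 2 of the other GBP and IRG genes. It then also called 2 of the Mx, very large GTPase and atlastin genes, 1 ligand gene, 0 receptor genes and 2 kinase and factor genes. Further calls were 5 inhibitor genes, 5 other interferon-gamma targets, 5 autophagy genes, 3 lipid anchor enzymes and 2 inflammasome genes. With the offset and without KO replicate 1 (10.7% of all genes called) the calls included 1 other GBP and IRG gene. The rest were 1 Mx, very large GTPase or atlastin gene, 5 interferon-gamma targets, 2 autophagy genes and 0 in the other lists. With genes kept from a single count (11% called) the calls included 1 Mx, very large GTPase or atlastin gene, 1 kinase or factor gene and 1 inhibitor gene. The rest were 5 interferon-gamma targets, 3 autophagy genes, 3 lipid anchor enzymes and 0 in the other lists. With total counts as the only scaling (9.4% called) the calls were 3 interferon-gamma targets, 2 autophagy genes and 0 in the other lists.

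**Figure D5:**
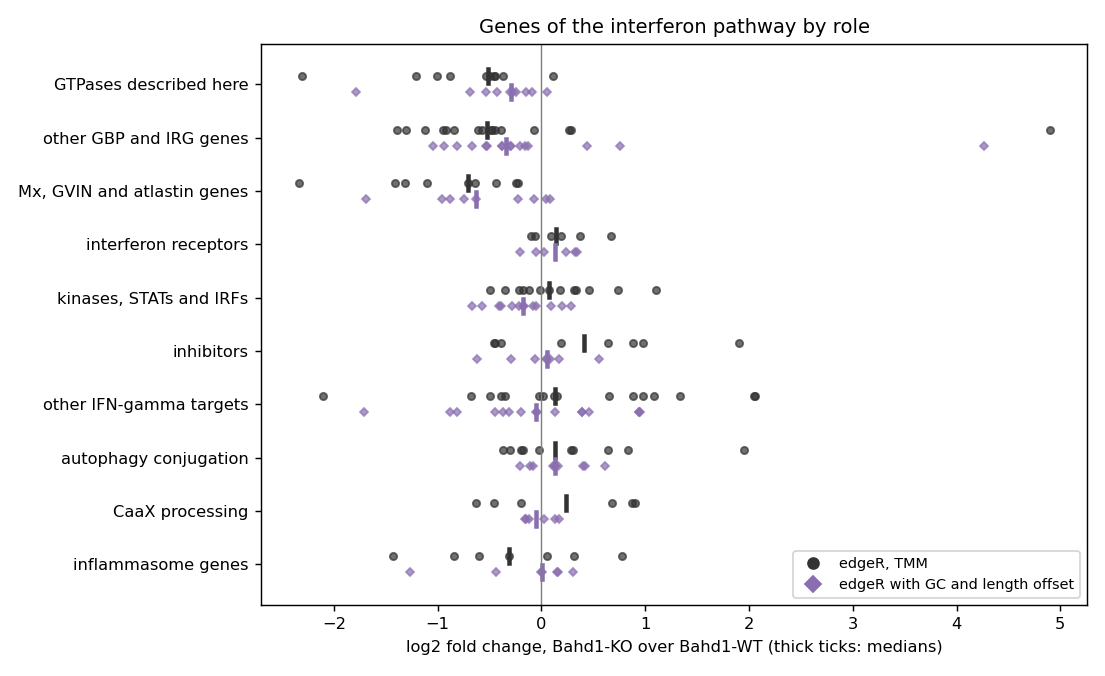
Log2 fold change (Bahd1-KO over Bahd1-WT) of single genes by their role in the interferon pathway, from edgeR with TMM normalization (circles) and with the GC and length offset (diamonds), with thick ticks for the medians. The 10 GTPase genes have a median of -0.52, the other GBP and IRG genes -0.53, and the Mx, very large GTPase and atlastin genes -0.70. The other roles have medians between -0.31 and 0.41.

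Markers of the brain cell types were present in every sample. Of 6 neuron, 6 astrocyte and 6 oligodendrocyte genes, 3 each were below 0 and 3 above. In that order 2, 2 and 3 did not overlap as higher and 2, 2 and 0 as lower (20.6% and 19.3% of all genes). Of 10 microglia genes 6 were above 0 and 4 below, 5 had an unadjusted p under 0.05 as higher and 0 as lower (19.9% and 12% of all genes), 4 did not overlap as higher and 2 as lower (20.6% and 19.3%), and with the offset 7 were below 0. None of them was at 0 counts. Among them P2ry12 was at 65.5 ± 6.01 CPM in the WT samples and 45.0 ± 14.2 CPM in the KO samples without overlap (log2 fold change -0.54, SE 0.24, and -0.01 with the offset). Csf1r was at 39.3 ± 9.74 and 57.2 ± 10.3 CPM with overlapping groups (0.54, SE 0.23, and -0.06 with the offset). The summed level of 8 endothelial genes was 247 to 269 CPM in the WT samples and 240 to 288 CPM in the KO samples, with 5 of the 8 above 0 (7 of 8 with the offset). Genes of T and NK cells, which are the usual source of interferon-gamma, summed to 7.82 to 9.12 and 7.17 to 9.02 CPM, with only Klrb1c at 0 counts in a library, and neutrophil genes to 7.21 to 8.04 and 1.90 to 7.03 CPM. Of the 6 neutrophil genes 3 were below 0 and 3 above, with an unadjusted p under 0.05 for 1 each way. Choroid plexus genes, led by Ttr, summed to 287 to 382 CPM in the WT samples and 467 to 1088 CPM in the KO samples, although 4 of the 6 were below 0 and 2 above. The part of these cells in the levels of the 10 genes was not tested.

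Across the 6 samples the mean centred log2 profile of the 10 genes was 0.46, 0.44 and 0.18 in the WT samples and -0.05, -0.59 and -0.44 in the KO samples. KO replicate 1 was the KO sample nearest to the WT samples, and WT replicate 3 the WT sample nearest to the KO samples. The genes with the most similar profile among 14697 other genes of at least 1 CPM were Paxbp1, 5930420M18Rik, Clk4, Luc7l3 and Odf2l, at root-mean-square distances of 0.0259 to 0.0566 on the log2 scale, where the median gene was at 0.430. These 6 points share the library depth and GC gradient given above.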

How the data were processed

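RNA-seq was analysed from a single hemisphere of 3 Bahd1-WT and 3 Bahd1-KO adult mice, grouped by their labels. The authors trimmed reads with cutadapt (1.11), aligned them to GRCm38 (their notes name STAR 2.5.0a, and the methods also Tophat2) and counted reads on exons with featureCounts (1.4.6-p3). They deposited whole-number counts per gene, without normalization, with the technical sequencing replicates of a mouse in a single column. The table holds 0 columns of other samples. Its totals were 42297150 to 93557948 counts.

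Genes with fewer than 10 counts in all libraries together were left out. The main test was edgeR 4.0.16 (R 4.3.3) with TMM normalization and a quasi-likelihood fit on genotype alone, and Benjamini-Hochberg adjustment over 23975 genes, where a call needs an adjusted p under 0.05. The GC and length offset was fitted per library with natural splines (5 and 3 degrees of freedom) on 13283 genes of mean log2 CPM above 1. DESeq2 1.42.0, other scalings and filters, and omitted samples were alternatives, and scripts were tested on simulated data. Same-numbered samples are different animals, and their deviations correlated at -0.22, -0.24 and -0.02, so the numbers were not taken as pairs. Genes named were the 10 members, a fixed set of interferon genes and, in each list, the 3 of lowest p, plus leading markers and the 5 nearest profiles. Irgq, Tapbp, Psme1, Parp14 and Atg16l1 were named after their values were seen. The members and lists were chosen with earlier results of these data known. The leave-out of WT replicates 1 and 2, the offset fits with a sample left out and the shares of summed counts were added after seeing the data. Promoter windows came from RefSeq (GRCm38.p6). The embryonic brains were not analysed here, and some genes of the lists are not reported here.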

Additional observations from a re-analysis of the deposited data

How the results depend on the processing

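The number of the 10 genes called by edgeR, 0 with the main settings, was 4 with DESeq2 with or without a normal prior, 3 with genes kept from 1 count, 1 with total counts as the only scaling, and 0 to 3 when each sample was left out. The number with an unadjusted p under 0.05 was 4 with the main settings, where 7627 of 23975 genes had one in either direction. It was 8 with upper-quartile factors (8322 genes) and 2 with the replicate block and the offset together (3808 genes). It was 4 to 7 when each sample was left out (4286 to 10244 genes), and 1 to 5 when this was done with the offset (3171 to 6186 genes). Among the fits that left out a single sample without the offset, the highest counts came without KO replicate 1. There 3 were called and 7 had an unadjusted p under 0.05, against 7113 and 10244 of 23690 genes in either direction. The median log2 fold change of -0.52 was -0.29 with the offset in edgeR, in DESeq2 and with the block, -0.34 to -0.26 with the offset when each sample was left out (-0.27 without WT replicate 1), and -0.63 to -0.39 without it. The sign turned only for Igtp, -0.024 with upper-quartile factors, which moved the median of all genes from -0.06 to -0.20, and -0.025 with the offset without KO replicate 1, and for Gbp7, 0.082 with the offset without WT replicate 1 and 0.0099 without KO replicate 1. The causes were not tested. The replicate numbers pair no animals. With the replicate block the results were 0 called, 4 with an unadjusted p under 0.05 (5231 of 23975 genes) and a median of -0.53. Over 24 settings beside the main one, 216 of 240 log2 fold changes of the 10 genes were below 0. With 3 samples a group and F830016B08Rik at 2 to 37 counts a sample, small differences may have been missed, which was not tested for these genes.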
